A study of Mus musculus with 42 samples.

Results

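The Slit, Robo and netrin guidance genes were examined as a set of 10 genes: the ligand genes Slit1, Slit2, Slit3 and Ntn1, and the receptor genes Robo1, Robo2, Dcc, Unc5b, Unc5c and Unc5d. They were chosen by name from 21938 protein-coding genes, and a binding event was assigned to a gene when its point lay in the annotated gene span or within 50 kb on either side. The 10 windows covered 5.61 Mb of the mouse genome (mm10), which is 0.206% of the assembled chromosomes. They held 6063 events from 21 event lists, and these merged into 1670 sites of 377386 genome wide when events within 100 bp of each other were joined. The genes, as placed by GENCODE on mm10, were Slit1 (ENSMUSG00000025020.11, chr19:41600257-41743665, minus strand), Slit2 (ENSMUSG00000031558.15, chr5:47983138-48307733, plus strand), Slit3 (ENSMUSG00000056427.10, chr11:35121224-35708507, plus strand), Robo1 (ENSMUSG00000022883.11, chr16:72308306-73046095, plus strand), Robo2 (ENSMUSG00000052516.19, chr16:73891839-74411825, minus strand), Dcc (ENSMUSG00000060534.16, chr18:71253634-72351069, minus strand), Ntn1 (ENSMUSG00000020902.12, chr11:68209364-68400823, minus strand), Unc5b (ENSMUSG00000020099.8, chr10:60762593-60831581, minus strand), Unc5c (ENSMUSG00000059921.15, chr3:141465216-141834924, plus strand) and Unc5d (ENSMUSG00000063626.6, chr8:28646717-29219636, minus strand). These are long genes. The member windows ran from 169 kb (Unc5b) to 1197 kb (Dcc) with a median of 545 kb, against a median of 117 kb for all protein-coding genes, so counts of events per gene are read beside counts per 100 kb.

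Slit proteins are secreted ligands that repel axons through Robo receptors on the growth cone, and in the ventral spinal cord they keep axons from crossing or recrossing the midline and shape where motor axons leave and branch. Netrin-1, the product of Ntn1, is a laminin-related ligand that attracts axons carrying DCC and repels axons carrying an UNC5 receptor, alone or together with DCC. HOX proteins are homeodomain transcription factors that assign motor neurons to brachial, thoracic or lumbar fates along the spinal cord, and MEIS and PBX are homeodomain cofactors that can bind DNA beside them.

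The study asked how HOX proteins that bind similar DNA reach different sites in the same cells. ChIP-seq was done on embryoid bodies from mouse embryonic stem cell lines (Ainv15 background), each carrying 1 doxycycline-inducible transgene, so that every library came from cells in which a tagged HOX protein had been induced. Cells given retinoic acid and smoothened agonist (SAG) from day 0, which directs them to motor neurons and interneurons, received doxycycline on day 2 and were collected on day 3 (24 h of doxycycline) or day 4 (48 h), while the EB groups received doxycycline for 12 h without these patterning signals. Full-length factors at day 3 were 7 in number, HOXC10 with 3 libraries and HOXC6, HOXC8, HOXC9, HOXA9, HOXD9 and HOXC13 with 2 each. At day 4 there were HOXC6 (2), HOXC9 (2) and HOXC10 (4), and in EB cells HOXC6 (2) and HOXC9 (2). Of 4 chimeras at day 3, with 2 libraries each, HOXC13:C10.1 and HOXC13:C10.2 ended in the DNA-binding part of HOXC10 after an N-terminal part of HOXC13. The converse pair was HOXC10:C13.1 with HOXC10:C13.2. In HOXC13:C10.2 and HOXC10:C13.2 the exchanged part also took in a conserved stretch just before the homeodomain. MEIS was mapped at day 3 in the iHoxc6.V5, iHoxc9.V5 and iHoxc10.V5 lines and PBX at day 4 in the iFlag.Hoxc9 and iFlag.Hoxc10 lines, with 1 library each. The HOX proteins were recovered with an anti-Flag antibody except for 1 HOXC10 library (anti-V5) and 1 library each of HOXA9, HOXD9 and HOXC13 (anti-HA). The samples included an anti-Flag control library from iHoxc10.V5 cells at day 3 and an input library from iFlag.Hoxc8 cells at day 4. The lists carry 4 different totals of control reads. The total was 20.6 M for the day 3 lists of HOXC6, HOXC9, HOXC10, HOXA9, HOXD9 and HOXC13. It was 20.3 M for HOXC8, the chimeras and MEIS, 10.5 M for the EB lists and 4.72 M for the day 4 lists. Whether the control moved the calls was not tested.

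Each list was called on the pooled libraries of its group, so no value below has a spread between replicates, no test was made here from replicate values, and the 95% Wilson intervals cover the counting of sites only. A site is called shared when 2 lists have an event in the same merged site, and a missing event says only that no event passed the caller's threshold (q under 0.001) there. The 40 non-control libraries held 5.04 to 32.9 M reads with 0.008 to 0.527 of them estimated as signal, and the lists held 848 to 128388 events. Events were ranked within each list by estimated ChIP read number, and the strongest 10000 of a list were compared across factors because the lists differ in length. The estimated ChIP reads at rank 10000 ran from 64.5 for HOXC6 to 345.9 for HOXC13 among the full-length day 3 lists. The MEIS list from iHoxc9 cells stood apart over Unc5c, where most of its events lay in exons, and the shares, totals and motif values of the MEIS lists are given with and without those events.

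The sequences that follow are the 101 bases centred on the strongest full-length day 3 event of 10 sites on which the description turns, on the plus strand of mm10. Capitals mark 5 motifs searched on both strands. These are TAAT, the core of homeodomain sites; the posterior HOX core TTTAT and its variant TTTAC; the longer PBX-HOX composite TGATTTAT, which contains the posterior core; and the MEIS site TGACAG. A motif on the minus strand appears as its reverse complement, and neighbouring motifs can overlap. Robo2 is shown at 3 sites because the strongest HOXC6 site, the strongest HOXC10 site and the site with the most HOX lists are different sites there. The Slit2 and Slit3 pair, chosen after their values were seen, share a run of letters beside alternative transcript starts. The Robo1, Ntn1, Slit2 and Unc5b sites that close the set were each called for only some of the factors.
Robo2 intron 2, HOXC6 site at chr16:74322115-74322215: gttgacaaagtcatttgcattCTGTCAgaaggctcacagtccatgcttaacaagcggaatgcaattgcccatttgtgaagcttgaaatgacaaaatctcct
Robo2 intron 2, HOXC10 site at chr16:74217036-74217136: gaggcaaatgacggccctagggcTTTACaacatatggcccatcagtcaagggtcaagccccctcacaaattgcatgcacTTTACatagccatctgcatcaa
Robo2 upstream site at chr16:74427246-74427346: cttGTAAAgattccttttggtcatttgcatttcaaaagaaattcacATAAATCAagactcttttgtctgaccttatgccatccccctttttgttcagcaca
Slit2 alternative start site at chr5:48181843-48181943: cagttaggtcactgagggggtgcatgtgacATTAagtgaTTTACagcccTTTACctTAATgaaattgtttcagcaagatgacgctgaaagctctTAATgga
Slit3 alternative start site at chr11:35544314-35544414: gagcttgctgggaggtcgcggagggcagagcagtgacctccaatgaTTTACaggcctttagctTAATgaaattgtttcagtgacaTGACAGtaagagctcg
Robo1 HOXC8 and HOXC9 site at chr16:72553821-72553921: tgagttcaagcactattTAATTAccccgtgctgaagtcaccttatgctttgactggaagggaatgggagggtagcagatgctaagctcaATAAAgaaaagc
Robo1 HOXC13 site at chr16:72648774-72648874: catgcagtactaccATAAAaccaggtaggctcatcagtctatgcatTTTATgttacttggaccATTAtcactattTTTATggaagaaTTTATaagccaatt
Ntn1 HOXC9 site at chr11:68290717-68290817: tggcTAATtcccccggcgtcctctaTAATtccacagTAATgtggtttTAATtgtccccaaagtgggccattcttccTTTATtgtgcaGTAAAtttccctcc
Slit2 HOXC6 site at chr5:48039480-48039580: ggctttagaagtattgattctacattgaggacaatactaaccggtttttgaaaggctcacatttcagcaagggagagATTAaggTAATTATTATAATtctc
Unc5b intron 1 site at chr10:60826761-60826861: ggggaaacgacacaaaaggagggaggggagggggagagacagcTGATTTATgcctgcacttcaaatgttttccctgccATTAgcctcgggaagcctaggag

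The letters differed between these sites. The Robo2 HOXC6 site held none of the HOX cores searched and a single TGACAG, whereas the Robo1 HOXC13 site held TTTAT 4 times and the Slit2 HOXC6 site held TAAT 5 times. The Ntn1 HOXC9 site held 4 TAAT, 1 TTTAT and 1 TTTAC. TGATTTAT was present in the Robo2 upstream site and the Unc5b intron 1 site. Over 55573 tiles of 101 bases from the 10 windows, 56.9% held TAAT, 36.5% TTTAT, 21% TTTAC, 0.759% TGATTTAT and 6.69% TGACAG, so a single TAAT or TTTAT is common by itself. A match is a description of the letters and not of a bound site.

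HOX events were spread over nearly all of the guidance genes, and most lay in introns. Of the 1670 sites, 1398 (83.7%) were intronic, 27 were in coding exons, 34 in other exons, 117 in the upstream and 94 in the downstream flanks, and 34 lay within 1 kb of an annotated transcript start. A HOX list had an event at 1620 sites, and a full-length factor at day 3 at 1038. Of these 1038 sites, 562 were called for 1 of the 7 factors and 30 for all 7. The 30 were 10 in Robo2, 4 in Dcc, 3 each in Slit1, Slit2, Slit3 and Unc5c, 2 in Ntn1 and 1 each in Robo1 and Unc5d, with 0 in Unc5b.

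Among the strongest 10000 events of each list, the 10 windows took more than their part of the genome. They held 92 events for HOXC10 (0.920% of the 10000), 90 for HOXC8 (0.900%), 89 for HOXD9 (0.890%), 84 for HOXC9 (0.840%), 73 for HOXC6 (0.730%), 70 for HOXA9 (0.700%) and 45 for HOXC13 (0.450%), against 0.206% of the chromosomes. HOXC13 was the lowest of the 7 on this measure although it had the most events in the windows when whole lists were counted, 572 against 492 for HOXC9, 378 for HOXA9, 344 for HOXD9, 297 for HOXC8, 205 for HOXC10 and 107 for HOXC6. As shares of the whole lists these were 0.494% for HOXC13 and between 0.598% (HOXC6) and 0.763% (HOXC10) for the other factors. A total of 9 of the 10 genes had a strongest-10000 event for HOXC6, and likewise for HOXC9, HOXC10 and HOXC13, the exception each time being Unc5b. Among all protein-coding gene windows the share with such an event was 25.7% for HOXC6, 19.5% for HOXC9, 23.1% for HOXC10 and 26.1% for HOXC13, most of those windows being much shorter.

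**Figure D1:**
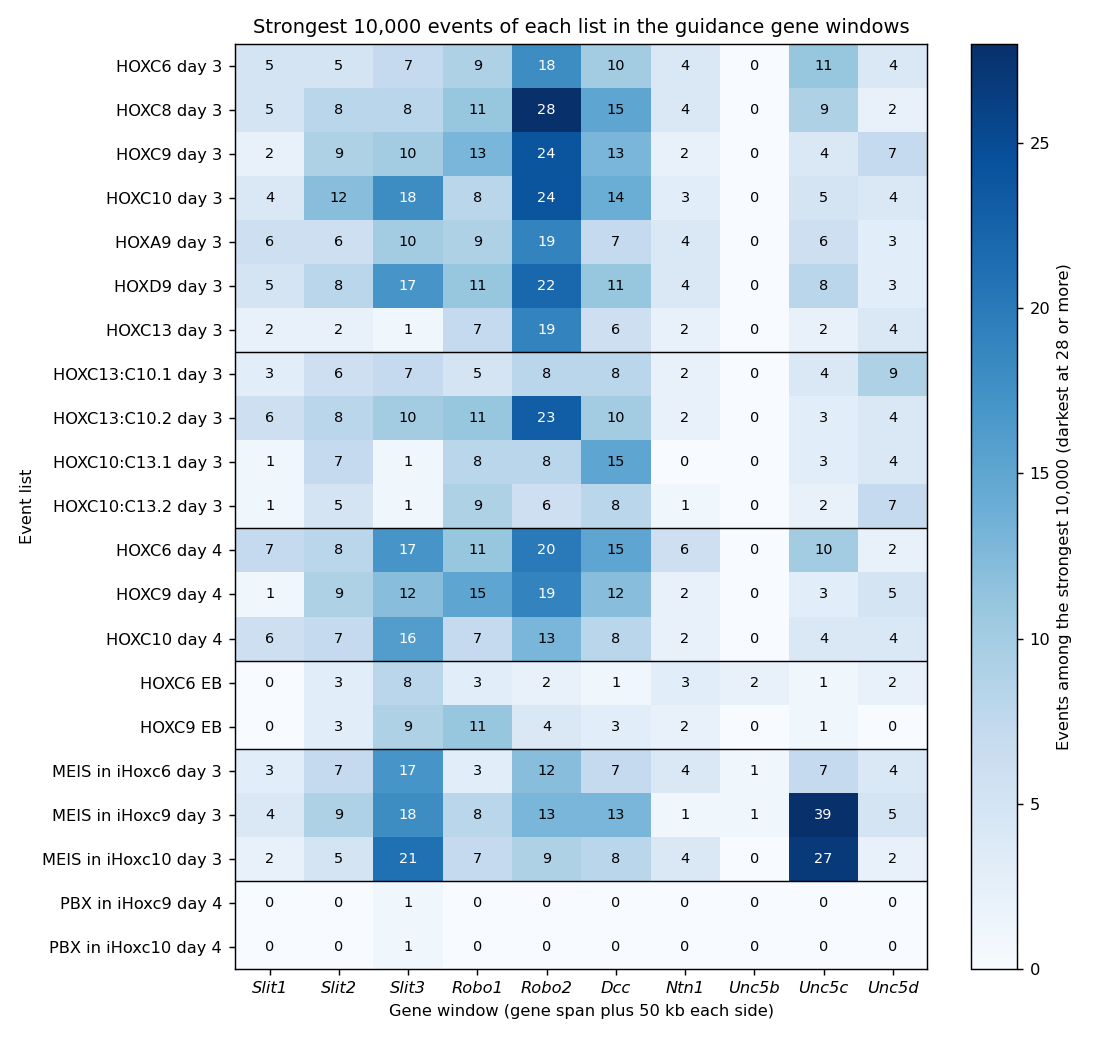
Number of events among the strongest 10000 of each list (the whole list where it is shorter) in the window of each guidance gene, one row per list and one column per gene, with darker colour for more events. The Robo2 column holds 18 to 28 events for each full-length factor at day 3, and the Unc5b column holds 0 for all 7.

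The Slit genes encode the repellent ligands, and their binding differed most between factors at Slit3. Slit3 had 18 strongest-10000 events for HOXC10 and 17 for HOXD9. It had 10 each for HOXC9 and HOXA9, 8 for HOXC8, 7 for HOXC6 and 1 for HOXC13. Slit2 ran from 2 (HOXC13) to 12 (HOXC10), with 5 for HOXC6, 6 for HOXA9, 8 for HOXC8, 8 for HOXD9 and 9 for HOXC9. Slit1, the shortest of the 3 genes, ran from 2 (HOXC9 and HOXC13) to 6 (HOXA9). HOXC13 was thus at or tied for the lowest count at all 3 Slit genes, while its whole-list counts there (16, 50 and 45 events in Slit1, Slit2 and Slit3) were not low beside those of HOXC10 (8, 19 and 31).

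The alternative start sites of Slit2 and Slit3 had much in common. The Slit2 site (chr5:48181887-48182007) lay in intron 5 of the long transcript Slit2-208 and 204 bp upstream of the start of Slit2-209. The Slit3 site (chr11:35543987-35544410) lay in intron 5 of Slit3-201 and 394 bp upstream of the start of Slit3-202. Each had events in 13 of the 16 HOX lists and in all 3 MEIS lists. At the Slit2 site the estimated ChIP reads over the 6 full-length factors with an event ran from 51.6 (HOXC6, rank 12855) to 577.2 (HOXD9, rank 486), with a median of 286, and HOXC13 had no event. At the Slit3 site they ran from 160.2 (HOXC6, rank 2896) to 1023.0 (HOXC9, rank 1413) over all 7 factors, with a median of 610, and the best rank was 97, for HOXD9. HOXC13 was at rank 13671 there.

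MEIS was strong at both. At the Slit2 site it ranked 150 in iHoxc9, 266 in iHoxc10 and 395 in iHoxc6 cells, and at the Slit3 site 700, 935 and 177. The HOXC6 list from EB cells had no event at either site, and HOXC9 in EB cells had an event only at the Slit3 site, at rank 35384. That event had its point at chr11:35544155, inside the merged site but outside the 101 bases printed above. Within the 101-base windows printed above, both sites held the same 19 letters, cttaatgaaattgtttcag, from base 55 of the Slit2 window and base 62 of the Slit3 window. The genes also each host a copy of the motor neuron microRNA miR-218, Mir218-1 in Slit2 and Mir218-2 in Slit3, and the sites lay 42.0 kb and 72.5 kb before these.

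Other leading Slit sites differed in the factors that held them. A second Slit2 site (intron 32 of Slit2-208, chr5:48291025-48291037) had events in 15 of the 16 HOX lists and for all 7 full-length factors, at ranks from 1586 (HOXC10) to 54444 (HOXC13). The strongest HOXC10 site of Slit3 (intron 5 of Slit3-201, chr11:35530140-35530239) ranked 100 for HOXC10 with 753.3 reads and had events for the other full-length factors except HOXC13, at ranks from 893 (HOXD9) to 4231 (HOXC6). HOXC13:C10.2 ranked it 443 and HOXC13:C10.1 ranked it 1590, whereas HOXC10:C13.1 and HOXC10:C13.2 ranked it 36990 and 74367. The Slit2 HOXC6 site, in intron 4 of Slit2-208, was the strongest HOXC6 site of the 10 genes without a HOXC9 or HOXC10 event. It ranked 854 for HOXC6 with 305.5 reads, 5088 for HOXC8 with 257.8 and 51864 for HOXD9 with 47.1, and had no event in the other full-length lists. At Slit1 the leading site (intron 25 of Slit1-201, chr19:41619091-41619196) was called for all 7 full-length factors, at ranks from 579 (HOXC10) to 6737 (HOXD9), in 14 of the 16 HOX lists, in neither EB list and in no MEIS list.

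Robo2, a receptor for the Slits, was the most densely bound of the 10 genes. Its strongest-10000 events numbered 28 for HOXC8, 24 each for HOXC9 and HOXC10, 22 for HOXD9, 19 each for HOXA9 and HOXC13, and 18 for HOXC6, the highest of the 10 genes in each of these lists. By this count Robo2 stood between place 2 (HOXC8 and HOXC9) and place 16 (HOXA9 and HOXD9) among the 21938 genes, with place 4 for HOXC13, place 10 for HOXC10 and place 12 for HOXC6. Counted per 100 kb over the whole lists it had 4.03 events for HOXC6 and 24.84 for HOXC13, the lowest and highest of the 7. Robo1, its paralog, has the longer window of the pair and had 7 (HOXC13) to 13 (HOXC9) strongest-10000 events.

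**Figure D2:**
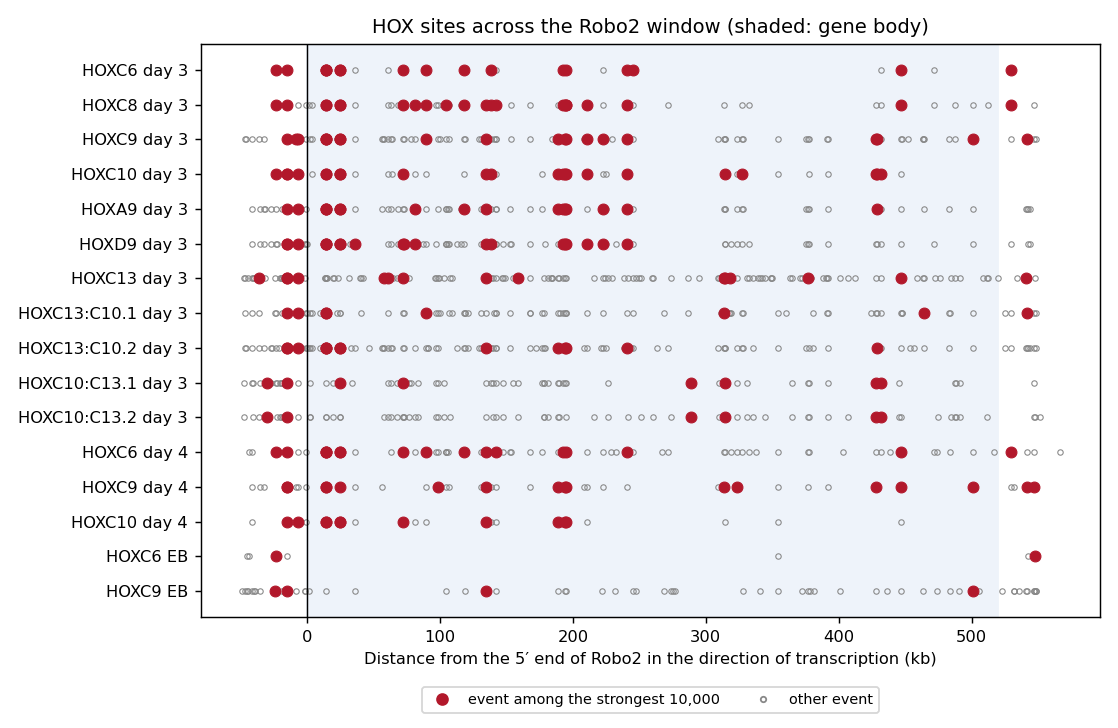
Events across the Robo2 window in the 16 HOX lists, one row per list, with the distance from the 5′ end of the gene in the direction of transcription on the horizontal axis (kb), filled points for the strongest 10000 events of a list, open points for the others, and shading for the gene body. All 7 full-length day 3 rows have a filled point at the site 15.5 kb upstream, and the EB rows hold only 2 (HOXC6) and 4 (HOXC9) filled points.

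The 3 Robo2 sites whose sequences are shown differed in which factor ranked them highest. The HOXC6 site lay in intron 2, 89.7 kb from the 5′ end (chr16:74322130-74322182), and was the best-ranked HOXC6 event of all 10 genes, at rank 59 of 17900 with 810.6 reads. HOXC9 had nearly as many reads there, 806.7, which placed it at rank 2246 of its own longer list, and HOXC8 had 682.9 (rank 959). HOXD9 had 142.7 (rank 10676), HOXA9 71.5 (rank 36087), HOXC10 54.8 (rank 22982) and HOXC13 no event. Reads cannot be set side by side between lists as levels, since the libraries differ in depth, and the lists differ in length as well. As a percent of the length of its own list, the rank at this site was 85.5 for HOXC10, 57.4 for HOXA9, 18.9 for HOXD9, 3.03 for HOXC9, 2.15 for HOXC8 and 0.33 for HOXC6.

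The HOXC10 site, also in intron 2 and 195 kb from the 5′ end (chr16:74216911-74217146), ranked 97 for HOXC10 at day 3 with 765.2 reads and 15 for HOXC10 at day 4 with 1248.8 reads. The other full-length factors ranked it from 483 (HOXC8) to 14327 (HOXC13), with HOXC6 at 3206. The upstream site, 15.5 kb before the 5′ end (chr16:74427269-74427349), had events in all 16 HOX lists and all 3 MEIS lists. Its full-length ranks ran from 295 (HOXD9) through 334 (HOXA9), 661 (HOXC10) and 1545 (HOXC13) to 3732 (HOXC9), 3939 (HOXC6) and 6799 (HOXC8), and its reads ran from 129.4 to 1087.7. Only 1 other of the 1670 sites was in all 16 HOX lists, at Ntn1. Of the 24 sites in at least 14 HOX lists, 8 were in Robo2, 4 in Dcc and 3 in Slit2.

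At Robo1 the leading sites differed in the factors that held them. A site in intron 2 of Robo1-206 (chr16:72830892-72830909) had events in 15 of the 16 HOX lists and for all 7 full-length factors, from rank 438 (HOXC10) and rank 484 (HOXA9) to rank 4590 (HOXC8). The HOXC8 and HOXC9 site, 246 kb into the gene span and 9.83 kb upstream of the transcript Robo1-206 (chr16:72553852-72553888), ranked 93 for HOXC8, 324 for HOXC6, 366 for HOXC9, 513 for HOXA9, 2643 for HOXD9 and 3261 for HOXC10, with no HOXC13 event. HOXC13:C10.2 ranked it 79. The HOXC13 site in intron 1 of Robo1-206 (chr16:72648793-72648852) was the strongest HOXC13 site of the 10 genes, at rank 216 with 2524.8 reads, and among the other full-length factors only HOXC9 had an event, at rank 11263 with 288.2 reads. In EB cells HOXC9 ranked that same site 628 with 2769.4 reads. HOXC10:C13.1 and HOXC10:C13.2 ranked it 9723 and 8138, and HOXC13:C10.1 ranked it 30485.

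Ntn1, which encodes netrin-1, had few events in its window of 291 kb but among them some of high rank. Its strongest-10000 counts were 4 for HOXC6, HOXC8, HOXA9 and HOXD9, 3 for HOXC10 and 2 for HOXC9 and HOXC13. A site in intron 3 of Ntn1-202 (chr11:68382627-68382664) ranked 116 for HOXC10 with 719.9 reads and 2307 for HOXC9 with 796.5. It ranked 16375 for HOXC6 with 38.4 reads and had no HOXC13 event. The Ntn1 HOXC9 site in the same intron (chr11:68290761-68290793) was the strongest HOXC9 site of the 10 genes without a HOXC6 or HOXC10 event at day 3, at rank 1047 with 1160.7 reads, and HOXC9 ranked it 1040 at day 4. HOXC6 and HOXC10 had events there at day 4 only, HOXC6 at rank 16084 and HOXC10 at rank 21734 with 71.8 reads. At day 3 the site was called for 5 of the 7 full-length factors. Among these, HOXA9 ranked it 3466 with 354.7 reads and HOXD9 ranked it 21610. A site 24.9 kb upstream of the gene (chr11:68425567-68425796) was in all 16 HOX lists, from rank 2396 (HOXC10) to rank 88200 (HOXC13) among the full-length factors.

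The netrin receptor genes ranged widely in their counts of events. Dcc, which encodes the receptor for attraction, had 15 strongest-10000 events for HOXC8, 14 for HOXC10, 13 for HOXC9, 11 for HOXD9, 10 for HOXC6, 7 for HOXA9 and 6 for HOXC13. Its window, of 1197 kb, is the longest of the set. Per 100 kb these counts ran from 0.5 (HOXC13) to 1.25 (HOXC8), against 0.69 to 1.37 at Ntn1. On that measure Dcc was above Ntn1 for HOXC9 and HOXC10 and below it for the other full-length factors. Its leading site, in intron 15 of Dcc-202, ranked 194 for HOXC10 with 623.6 reads, and HOXC13 ranked it 23908 with 171.5 reads. A site in intron 1 of Dcc-202 was the strongest HOXC13 site of the 10 genes without another full-length event, at rank 1829 with 1004.3 reads, and HOXC10:C13.2 ranked it 4827. Across the UNC5 genes, whose products mediate repulsion by netrin-1, Unc5c had 11 events for HOXC6, 9 for HOXC8, 8 for HOXD9, 6 for HOXA9, 5 for HOXC10, 4 for HOXC9 and 2 for HOXC13, so HOXC6 was highest at Unc5c and HOXC10 at Slit3. Unc5d had 2 (HOXC8) to 7 (HOXC9).

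Unc5c had its leading HOXC6 site in intron 1 of Unc5c-202 (chr3:141504332-141504418), at rank 177 with 584.5 reads. The same site was called for 6 of the 7 full-length factors. HOXC8 ranked it 272 with 1160.9 reads, HOXC10 ranked it 803 with 390.9, and HOXC9 had the lowest rank, 10681 with 300.9. A site in intron 4 (chr3:141733949-141734101) had events in 14 of the 16 HOX lists, with full-length ranks from 444 (HOXC6) to 1112 (HOXC10) and no HOXC13 event. The leading site of Unc5d, in intron 4 of Unc5d-201 (chr8:28769393-28769420), ranked 525 for HOXC6, 737 for HOXC8 and 792 for HOXC9 but 53736 for HOXC13. Unc5b had 15 events in all over the 7 lists and none among the strongest 10000. HOXC6 had no event there, and the best ranks of the other 6 factors ran from 21471 (HOXC10) to 36325 (HOXC8). The Unc5b window was also the shortest, and its highest density over the 7 lists was 2.96 events per 100 kb against 24.84 at Robo2.

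Across the 10 genes the overlap of the factors was close to their overlap genome wide in some pairs and above it in others. Of 197 HOXC10 sites, 169 had a HOXC9 event (85.8%, 80.2 to 90.0), with 83.0% genome wide. In the other direction 169 of 466 HOXC9 sites had a HOXC10 event (36.3%, 32.0 to 40.7), and the genome-wide share of 30.9% lay below this interval. A HOXC6 event was present at 85 of 466 HOXC9 sites (18.2%, 15.0 to 22.0), with 17.5% genome wide. HOXC8 had an event at 99 of 102 HOXC6 sites (97.1%, 91.7 to 99.0), with 91.1% genome wide. These shares depend on list length. With each pair of lists taken to equal length, the strongest events of each, the shares were 62.0% for HOXC9 with HOXC10 (52.7% genome wide), 53.8% for HOXC10 with HOXC9 (49.2% genome wide), 40.6% for HOXC9 with HOXC6 (38.2% genome wide) and 83.3% for HOXC6 with HOXC8 (67.5% genome wide).

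Split by class, 281 of 466 HOXC9 sites had neither a HOXC6 nor a HOXC10 event (60.3%, 55.8 to 64.6; 63.7% genome wide), and 69 had both (14.8%, 11.9 to 18.3; 12.0% genome wide). The share with neither was highest at Unc5b, with 4 of 5 sites, and Robo1, with 66 of 92, and lowest at Slit1, with 8 of 17, and Slit3, with 23 of 48. Sites of HOXC6 without HOXC9 or HOXC10 were fewer than genome wide, 12 of 102 (11.8%, 6.86 to 19.4) against 25.0%. HOXC10 sites without HOXC9 were 28 of 197 (14.2%, 10.0 to 19.8; 17.0% genome wide). Of 563 HOXC13 sites, 364 had no event of another full-length factor (64.7%, 60.6 to 68.5) against 73.4% genome wide, and 30 had events of all 7 (5.33%, 3.76 to 7.50) against 2.79%.

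**Figure D3:**
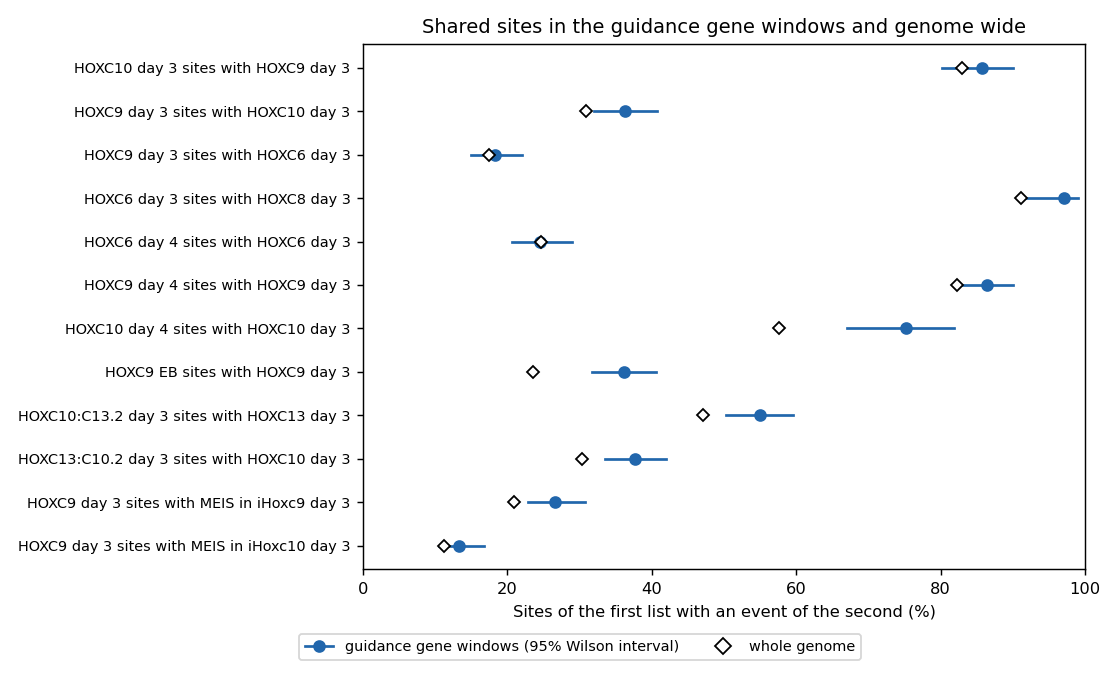
Share of the sites of one list that had an event of a second list, in the 10 windows (filled points, with 95% Wilson intervals that cover the counting of sites only) and over the whole genome (open diamonds), in percent. The genome value lies below the interval for HOXC10 day 4 with day 3, HOXC9 EB with day 3, HOXC9 with HOXC10 and HOXC6 with HOXC8. It also lies below for HOXC10:C13.2 with HOXC13, HOXC13:C10.2 with HOXC10 and HOXC9 with MEIS in iHoxc9. For the other pairs, such as HOXC9 with HOXC6, it lies inside.

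HOXA9 and HOXD9, the paralogs of HOXC9, largely used sites that HOXC9 also used. HOXC9 had an event at 276 of 364 HOXA9 sites (75.8%, 71.2 to 79.9; 68.2% genome wide) and at 221 of 331 HOXD9 sites (66.8%, 61.5 to 71.6; 56.6% genome wide). Conversely, 59.2% of the 466 HOXC9 sites had a HOXA9 event (54.7 to 63.6), with 58.8% genome wide. A HOXD9 event was present at 47.4% of them (42.9 to 52.0), with 44.0% genome wide. The HOXC9 list is the longest of the 3, with 74085 events against 62916 for HOXA9 and 56400 for HOXD9. HOXC10 had an event at 69 of 563 HOXC13 sites (12.3%) against 7.88% genome wide, and in the other direction 69 of 197 HOXC10 sites had a HOXC13 event (35.0%, 28.7 to 41.9; 34.0% genome wide). At Slit3, HOXD9 had 17 strongest-10000 events against 10 for HOXA9 and 10 for HOXC9, while at Robo2 the 3 paralogs had 22, 19 and 24.

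Letters around the events differed between factors much as they did over the whole lists. With 1 event counted per merged site in the windows and every event counted in the whole lists, TTTAT lay within 50 bp of 292 of 466 HOXC9 events (62.7%, 58.2 to 66.9; 62.4% of the whole list), of 43 of 102 HOXC6 events (42.2%, 33.0 to 51.9; 38.4% of the whole list) and of 440 of 563 HOXC13 events (78.2%; 78.8% of the whole list). The tile background for TTTAT was 36.5%, inside the HOXC6 interval. For TTTAC the whole-list share lay below the interval for HOXC10 (34.0%, 27.8 to 40.9; 24.3% of the list), HOXA9 (34.1%, 29.4 to 39.1; 25.6%), HOXC8 (26.3%, 21.4 to 31.7; 20.2%), HOXD9 (28.7%, 24.1 to 33.8; 23.0%) and HOXC9 (33.0%, 28.9 to 37.4; 27.7%), while HOXC13 had 41.6% in the windows and 42.8% over its list. TGATTTAT lay at 9.37% of HOXD9 events (8.75% of the whole list), 9.07% of HOXA9 (8.18%), 2.94% of HOXC6 (3.47%) and 2.49% of HOXC13 events (2.48%). TGACAG lay at 24.7% of MEIS events in iHoxc9 (21.2% of the whole list), 22.4% in iHoxc10 (23.4%) and 25.4% in iHoxc6 cells (25.5%), against 6.69% of tiles. Without the Unc5c exon events, described with the MEIS lists, the shares became 23.8% for the iHoxc10 list and 26.8% for the iHoxc9 list, and the iHoxc6 value did not change. HOXC9 was above HOXC6 for TTTAT also within 25 bp (43.8% and 17.6%) and within 100 bp (80.0% and 71.6%).

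**Figure D4:**
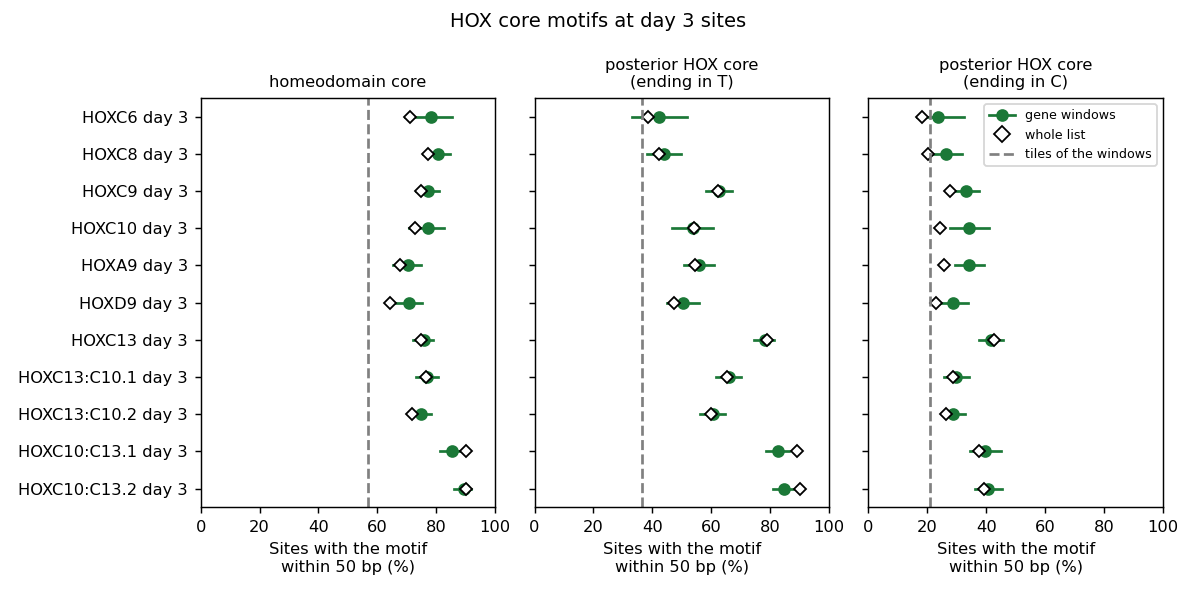
Share of sites in the 10 windows with a motif within 50 bp of the event point, in percent, for the 7 full-length factors and 4 chimeras at day 3, with 95% Wilson intervals, the share over the whole list (diamonds) and over tiles of the windows (dashed line). The panels show TAAT on the left, TTTAT in the middle and TTTAC on the right. HOXC13 events hold TTTAT more often (78.2%) than HOXC9 (62.7%) or HOXC6 (42.2%) events.

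The chimeras addressed which part of HOXC10 or HOXC13 goes with the choice of sites. At Slit3 the 18 strongest-10000 events of HOXC10 stood beside 7 for HOXC13:C10.1, 10 for HOXC13:C10.2, 1 for HOXC10:C13.1, 1 for HOXC10:C13.2 and 1 for HOXC13. By whole lists Slit3 had 31 events for HOXC10, 45 for HOXC13, 63 and 75 for the chimeras with the HOXC10 homeodomain and 12 and 16 for those with the HOXC13 homeodomain. Dcc did not have this order, with whole-list counts of 35 for HOXC10, 106 for HOXC13, 84 and 89 for HOXC13:C10.1 and HOXC13:C10.2, and 93 and 126 for HOXC10:C13.1 and HOXC10:C13.2. Robo2 had 24 strongest-10000 events for HOXC10, 8 and 23 for HOXC13:C10.1 and HOXC13:C10.2, 8 and 6 for HOXC10:C13.1 and HOXC10:C13.2, and 19 for HOXC13. At Unc5d the chimeras HOXC10:C13.1 and HOXC10:C13.2 had best ranks of 140 and 178, both at chr8:29228384. The best-ranked Unc5d events of HOXC10 (rank 3291, chr8:28769411) and HOXC13 (rank 4061, chr8:28983934) lay at other places.

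Over the 10 genes, 189 of 197 HOXC10 sites had a HOXC13:C10.2 event (95.9%, 92.2 to 97.9; 93.8% genome wide) and 150 had a HOXC13:C10.1 event (76.1%; 74.7% genome wide). HOXC10:C13.1 and HOXC10:C13.2 had an event at 83 (42.1%, 35.5 to 49.1; 24.5% genome wide) and 77 (39.1%, 32.5 to 46.0; 26.4% genome wide) of them, so these chimeras, with the HOXC13 homeodomain, met HOXC10 sites more often at the guidance genes than over the genome. Of 503 HOXC13:C10.2 sites, 189 had a HOXC10 event (37.6%, 33.5 to 41.9; 30.3% genome wide), and with lists of equal length this was 73.1% (67.4% genome wide). Of 433 HOXC10:C13.2 sites, 238 had a HOXC13 event (55.0%, 50.3 to 59.6; 47.1% genome wide), and this share ran from 41.9% at Dcc to 71.8% at Robo2 among the genes with over 50 such sites. TTTAT lay at 82.8% of HOXC10:C13.1 and 84.8% of HOXC10:C13.2 events in the windows, below the 89.2% and 90.0% of their whole lists.

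Sites at day 3 and day 4 overlapped to different degrees for the 3 factors, in lists that also differ in length. HOXC6 had 102 sites at day 3 and 408 at day 4, in lists of 17900 and 69297 events, and 100 of the 408 were called at day 3 (24.5%, 20.6 to 28.9; 24.7% genome wide). With lists of equal length the share was 62.2% and the genome-wide share 72.7%. Robo2 had 24 HOXC6 sites at day 3 and 78 at day 4 with 23 in common, Slit3 had 12 and 61 with 11 in common, and Dcc had 14 and 73 with 14 in common. The HOXC6 libraries had estimated signal fractions of 0.08 and 0.07 at day 3 and of 0.311 and 0.304 at day 4. Their controls held 20.6 M reads at day 3 and 4.72 M at day 4. Whether these differences moved the counts was not tested. Among the strongest 10000 events the HOXC6 count in the 10 windows was 73 at day 3 and 96 at day 4. HOXC9 had 466 and 259 sites, and 224 of the 259 were called at day 3 (86.5%, 81.8 to 90.1; 82.3% genome wide).

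HOXC10 had 197 and 129 sites, and 97 of the 129 were called at day 3 (75.2%, 67.1 to 81.8). This was above the 57.6% found genome wide. Slit3 kept its number of HOXC10 sites, 29 and 30 with 21 in common, whereas Robo2 had 42 and 22 with 20 in common. The day 4 HOXC10 list pooled 4 libraries and the day 3 list 3. Estimated signal fractions for HOXC10 were 0.017, 0.041 and 0.161 at day 3 and 0.047 to 0.056 at day 4. For HOXC9 they were 0.174 and 0.398 at day 3 and 0.14 and 0.188 at day 4. The controls of both factors held 20.6 M reads at day 3 and 4.72 M at day 4. Whether these differences moved the counts was not tested.

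In EB cells, which had not been directed to motor neurons, the guidance genes took a smaller part of the lists. The windows held 0.290% of HOXC6 and 0.356% of HOXC9 events, and 25 and 33 of the strongest 10000, against 73 and 84 at day 3. Robo2 had 2 strongest-10000 events for HOXC6 and 4 for HOXC9 in EB cells, against 18 and 24 at day 3. Of 441 HOXC9 sites in EB cells, 159 were called at day 3 (36.1%, 31.7 to 40.6), with 23.5% genome wide. In the other direction 159 of 466 HOXC9 sites at day 3 had an EB event (34.1%, 30.0 to 38.5), with 41.1% genome wide. For HOXC6, 12 of 128 EB sites were called at day 3 (9.38%, 5.44 to 15.7; 7.80% genome wide), and 12 of 102 day 3 sites had an EB event (11.8%, 6.86 to 19.4; 19.6% genome wide).

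At Slit3, Ntn1 and Unc5b the strongest-10000 counts in EB cells and at day 3 differed by at most 2 events. Slit3 had 8 for HOXC6 and 9 for HOXC9 in EB cells and 7 and 10 at day 3, Ntn1 had 3 and 2 against 4 and 2, and Unc5b had 2 for HOXC6 against 0. The best-ranked Slit3 events in EB cells were at rank 66 for HOXC9 (chr11:35295334) and rank 127 for HOXC6 (chr11:35295322). At day 3 the best-ranked events lay at other places, at rank 905 for HOXC9 (chr11:35459914) and rank 1446 for HOXC6 (chr11:35318419). At the Unc5b intron 1 site, 4.77 kb from the 5′ end (chr10:60826796-60826851), HOXC6 in EB cells ranked 2582 with 521.2 reads and HOXC9 in EB cells ranked 16973 with 364.8 reads. At day 3 the HOX events there were HOXC9 (rank 47631), HOXA9 (24196), HOXD9 (28440) and the chimeras HOXC13:C10.1 (65326) and HOXC13:C10.2 (42060). The EB lists are also longer than those of day 3, with 44751 against 17900 events for HOXC6 and 128388 against 74085 for HOXC9. For HOXC6 the estimated signal fractions were 0.297 and 0.201 in EB cells, against 0.08 and 0.07 at day 3. For HOXC9 they were 0.461 and 0.491, against 0.174 and 0.398. The controls held 10.5 M reads for the EB lists and 20.6 M for these day 3 lists. The EB and day 3 libraries thus differ in doxycycline time, signal fraction and control as well as in cell stage, which cannot be told apart here.

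MEIS events were present at all 10 genes in iHoxc9 cells, and the windows held 207 in iHoxc9, 105 in iHoxc10 and 65 in iHoxc6 cells, or 0.910%, 0.809% and 0.791% of the lists. Without the Unc5c exon events described next, the iHoxc9 list held 172 (0.756%) and the iHoxc10 list 84 (0.647%), so their place above the iHoxc6 list, which has no such event, rests on those exons. MEIS had an event at 38 of 102 HOXC6 sites in the iHoxc6 list (37.3%, 28.5 to 46.9; 26.2% genome wide) and at 58 of 197 HOXC10 sites in the iHoxc10 list (29.4%, 23.5 to 36.2; 27.4% genome wide). At HOXC9 sites it was 124 of 466 in the iHoxc9 list (26.6%, 22.8 to 30.8; 20.9% genome wide) and 62 of 466 in the iHoxc10 list (13.3%, 10.5 to 16.7; 11.2% genome wide). Leaving out these exon events changed the shares of HOX sites by at most 1 site, to 123 of 466 for HOXC9 with the iHoxc9 list (26.4%). With lists of equal length HOXC9 met MEIS at 43.9% of sites in the iHoxc9 list (38.5% genome wide) and 27.6% in the iHoxc10 list (25.7% genome wide), and at a q under 1e-6 the second share was 7.50%. Robo2 had 12, 33 and 14 MEIS events in the iHoxc6, iHoxc9 and iHoxc10 lists, Slit3 had 17, 37 and 27, and Robo1 had 3, 22 and 9.

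At Unc5c the MEIS list from iHoxc9 cells had 44 events, of which 35 had their point in an exon, and these touched all 16 exons of Unc5c-202. Their estimated ChIP reads ran from 34.0 to 10609.2 with a median of 5032, and at most 9.2 control reads were estimated at any of them. They included the strongest event of the whole list and 31 of its 50 strongest. Of the 9 events outside exons, 8 had 27.2 to 212.4 reads, and the other, with 1582.0, lay 8 bp from an exon, in the intron 4 site named above. Exons make up 4.07% of the Unc5c window.

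The iHoxc10 list showed the same places at lower reads. It had 27 Unc5c events, 21 of them in exons with 37.7 to 151.0 reads (median 73.7), and all 21 lay within 100 bp of an exon event of the iHoxc9 list. The iHoxc6 list had 7 Unc5c events and 0 in exons. In the other 9 genes 2 of 163 events of the iHoxc9 list and 0 of 78 of the iHoxc10 list were in exons. The 16 HOX lists had 384 events in the Unc5c window, 12 of them in exons, and 1 of the 35 exon points had a HOX event within 100 bp. Each list rests on 1 library, and the cause of the exon events was not tested.

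**Figure D5:**
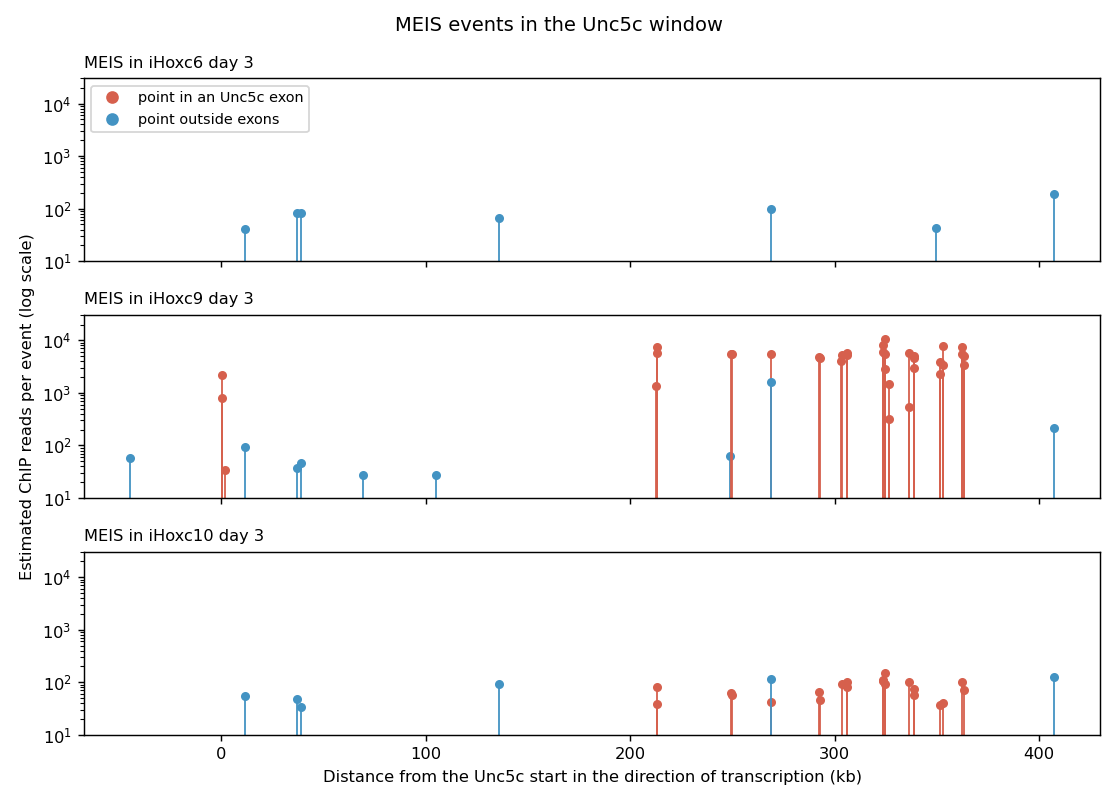
Estimated ChIP reads (log axis) of each MEIS event across the Unc5c window against the distance from the 5′ end of the gene (kb), for the 3 MEIS lists, with events in exons marked apart from the others. In the iHoxc9 list the exon events reach 10609.2 reads, in the iHoxc10 list 151.0, and the iHoxc6 list has none.

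PBX had 1 event in each list over the 10 genes, both in Slit3, in lists of 1165 and 848 events. The event in iHoxc9 cells had 29.9 reads at rank 582 and had its point 3925 bp past the start of Mir218-2, in a site (chr11:35620741-35620799) that also held HOXC10 at rank 23670 and HOXD9 at rank 44164. The event in iHoxc10 cells, at chr11:35451928, had 20.2 reads at rank 772 with no HOX event. The PBX libraries had the lowest estimated signal fractions, 0.009 and 0.008, and a missing PBX event is read only as not called.

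The other genes of the pathway, a list of 27 other receptors, ligands and effectors chosen by function, were counted in windows of 6536 kb in all. Windows and events were summed over genes, so an event in overlapping windows counts for each gene. Robo3 and Robo4, both in the list, had the same strongest-10000 counts for every full-length factor. Of the 27, between 23 (HOXC10) and 27 (HOXD9) had an event of a full-length factor at day 3, and between 16 (HOXC9) and 20 (HOXC6 and HOXC13) had one among the strongest 10000. Per 100 kb of window the strongest-10000 events of the full-length factors ran from 0.474 (HOXC9) to 0.811 (HOXC6) over the 27 genes and from 0.802 (HOXC13) to 1.64 (HOXC10) over the 10 guidance genes. The gap was smallest for HOXC13, with 0.643 per 100 kb over the 27 genes and 0.802 over the 10. Dock1, which encodes a signalling protein downstream of netrin receptors, had 6 for HOXC8 and for HOXA9, the highest count of the 27 in those lists. Robo2 had 28 and 19 in the same lists, and Unc5b had 0 in both.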

How the data were processed

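ChIP-seq libraries from 42 samples in 23 groups were used through the 21 deposited event lists, each called on the pooled libraries of a group. The authors aligned reads to mm10 with Bowtie (v1.0.1), and the submitters' processing notes also name Picard 2.8.2. They called events with MultiGPS, keeping q under 0.001. Per the file headers, each list gives an estimated count of ChIP reads and of scaled control reads per event. The authors also deposited a log2 fold of ChIP over control and a log2 q-value, a score read here as the caller's significance. Columns with the authors' edgeR 3.22.5 comparisons between conditions (log2 fold, log2 CPM and log2 p) were not used. The 10 genes, the gene lists and the site rules were chosen with earlier results of these data known.

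Events with a point in a gene span (GENCODE release 21 on mm10) or within 50 kb were merged within 100 bp across lists, and ranked by estimated ChIP reads within each list. Sequences were read from GRCm38 within 50 bp of event points, after all deposited sequences of member events had been checked against it. Shares have 95% Wilson intervals, which cover the counting of sites only. No list holds values per replicate, so no test was made. Named sites were, per gene, the best-ranked full-length day 3 site and the site in the most HOX lists; over all genes, the best site of HOXC6, HOXC9, HOXC10 and HOXC13, the best sites called for 1 factor without others, each PBX site and sites within 1 kb of a transcript start. Analyses used Python 3.11.15, NumPy 2.4.6 and SciPy 1.17.1. The code was checked on 2 simulated lists, placed in the HOXC6 and HOXC9 day 3 slots. With shared sites planted within the merge distance, the merging found 100% of 1200. The motif search found 100% of 1000 motifs planted in sequence of G and C only. These checks show that the code follows its rules and give no error rate for the deposited lists. Depth was 5.04 to 32.9 M reads per library in 40 libraries, with 4.72 to 20.6 M for the controls; 5 lists rest on 1 library, 14 on 2 and 2 on more. Alternatives were other flanks, merge distances, a stricter q, the strongest 5000 events, lists of equal length and other motif windows.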

Additional observations from a re-analysis of the deposited data

How the results depend on the processing

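No paired analysis was possible because each list pools the libraries of its group, and for the same reason leaving out a replicate could not be run. Counting the strongest 5000 events gave 44 in the windows for HOXC6, 38 for HOXC9, 59 for HOXC10 and 25 for HOXC13, with HOXC13 the lowest of these 4. With lists cut to equal length the share was 53.8% for HOXC10 sites with HOXC9, 62.0% for HOXC9 with HOXC10, 40.6% for HOXC9 with HOXC6, 83.3% for HOXC6 with HOXC8, 62.2% for HOXC6 day 4 with day 3, 72.2% for HOXC9 day 4 with day 3, 41.8% for HOXC9 EB with day 3, 41.6% for HOXC10:C13.2 with HOXC13, 73.1% for HOXC13:C10.2 with HOXC10, 43.9% for HOXC9 with MEIS in iHoxc9 and 27.6% with MEIS in iHoxc10, and HOXC10 day 4 with day 3 was 70.5%. On that footing HOXC6 day 4 with day 3 lay below its genome-wide share of 72.7%, which was above its Wilson interval. The other 11 lay above theirs, but not all by more than the counting of sites allows. The genome-wide share lay inside the Wilson interval for HOXC10 with HOXC9, HOXC9 with HOXC6 and HOXC13:C10.2 with HOXC10. It also lay inside for HOXC9 with MEIS in iHoxc9 and in iHoxc10. For the rest of the 11 it lay below the interval. Merging within 50 bp gave 91.5% for HOXC6 with HOXC8 and 48.5% for HOXC10:C13.2 with HOXC13. A q under 1e-6 gave 48.6% for the latter, 19.2% for HOXC9 with MEIS in iHoxc9 and 7.50% with MEIS in iHoxc10. TTTAT lay within 25 bp of 43.8% of HOXC9 and 17.6% of HOXC6 events, and within 100 bp of 80.0% and 71.6%. The merged sites numbered 1459 without flanks, 1876 with 100 kb, 1276 at the stricter q, 1936 and 1516 merging within 50 and 200 bp, and 1645 without the Unc5c exon events of MEIS, an alternative chosen after seeing the data. Beyond the shorter lists, smaller distances or narrower windows that these settings impose, the cause of the changes was not tested. The PBX libraries held 23.3 and 21.6 M reads, within the range of the others, but had the lowest signal fractions and the shortest lists, and a missing event there or in the short HOXC6 list is not evidence of absence. Leaving out the same exon events took the MEIS lists to 172 events in iHoxc9 and 84 in iHoxc10 cells.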
